A study of Arabidopsis thaliana with 12 samples.

Results

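Gene expression was compared between slim1-1 and wild-type Arabidopsis thaliana seedlings that had both been exposed to arsenite, on 6 of the 12 single-colour Affymetrix arrays of the study. The members were chosen by their labels alone, as the 3 arrays of slim1-1 seedlings on 20 µM As(III) and the 3 arrays of Col-0 seedlings on 20 µM As(III). Seedlings of both genotypes were harvested whole at 14 days, after 12 days on minimal medium without metal and 48 h on arsenite. The other 6 arrays hold slim1-1 and Col-0 seedlings labelled with 100 µM cadmium, for which the duration of exposure was taken as unknown, since the treatment text of the labels names only arsenite. The replicates are described as biological. The mutant is represented by 1 allele, and no unexposed seedlings were analysed here, so each value below is a difference between genotypes in the presence of arsenite and not a response to arsenite.

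SLIM1, also called EIL3, is a relative of the ethylene regulator EIN3 and acts as the central transcription factor of sulfur starvation. It promotes sulfate uptake and the release of sulfur from glucosinolates, and it represses glucosinolate synthesis. Arsenite binds thiol groups, and plant cells detoxify it with glutathione and phytochelatins, which are built from assimilated sulfur. SLIM1 itself was not analysed here by name, so the genotype labels were not checked against the mutated gene.

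Levels are log2 values after RMA, which corrects background, equalizes the distributions of the arrays and sums the probes of a set. The median level over genes was 6.45 to 6.48 in the slim1-1 arrays and 6.39 to 6.43 in the Col-0 arrays. Arrays of a group correlated with r of at least 0.992 across genes. A difference between genotypes had a standard error of 0.0914 in the median gene, and the number of arrays limits the precision. Root markers averaged 8.64 in slim1-1 and 8.63 in Col-0 (3 genes measured, exact permutation p = 1), and 25S rRNA averaged 11.04 in slim1-1 and 11.40 in Col-0 (exact permutation p = 0.4). The smallest p that 3 against 3 arrays allow is 0.1, and it was reached by the 3' minus 5' signal of GAPDH, which averaged 0.820 in slim1-1 and 0.961 in Col-0, and by that of ubiquitin, which averaged 0.921 in slim1-1 and 0.797 in Col-0. These differences had opposite signs. The 3' minus 5' signal of actin averaged 3.29 in slim1-1 and 3.41 in Col-0 (exact permutation p = 0.7). The 3' minus 5' signals are signs of RNA quality. With a smallest possible p of 0.1, their tests cannot settle whether RNA quality differed between the genotypes. The part of RNA quality in the results was not tested. Because whole seedlings were used, fewer cells of a type and less RNA per cell cannot be told apart.

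Of 13356 genes tested, 140 passed an adjusted p of 0.05 (limma over 12 arrays, Benjamini-Hochberg adjustment over all genes), which is 1.05% of them. Of these, 61 genes were higher in slim1-1 (0.457%) and 79 were lower (0.591%). Most differences were small. The median size among the called genes was 0.61 on the log2 scale, the smallest was 0.31, and 20 genes (0.15%) differed at least 2-fold, 9 of them higher and 11 lower in slim1-1. At an unadjusted p below 0.05 there were 1716 genes, or 12.8%. The 3 slim1-1 arrays and the 3 Col-0 arrays did not overlap for 2431 genes (18.2%), with slim1-1 higher for 9.95% of all genes and lower for 8.25%, and these included every called gene. Called genes were mostly well expressed. With genes split by level into 3 equal parts, 1 gene of the lowest part was higher in slim1-1 and 0 were lower. In the middle part 25 were higher and 27 lower, and in the highest part 35 were higher and 52 lower.

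The count depended on how the spread was estimated. Fitted on the 6 arsenite arrays alone, 14 genes passed (0.105%), of which 13 (0.0973%) also passed over 12 arrays. Among the 140 genes the median pooled SD within groups was 0.156 in the arsenite arrays and 0.109 in the cadmium arrays, whereas over all genes it was 0.104 in the arsenite arrays and 0.107 in the cadmium arrays. Leaving out slim1-1 replicate 1 gave 250 calls, and leaving out slim1-1 replicate 2 gave 58. Without Col-0 replicate 2 there were 50 calls and without Col-0 replicate 3 there were 88. Of the 140 genes, 40 passed whichever of the 6 arsenite arrays was left out, 16 of them higher and 24 lower in slim1-1. No called gene changed sign under these settings. That was fixed in advance, since the slim1-1 and Col-0 arrays did not overlap in any called gene. Shifting all arrays to a common median moved the median difference over all genes to -0.05, against 0.01 as deposited, and changed the split to 42 higher and 152 lower genes.

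**Figure D1:**
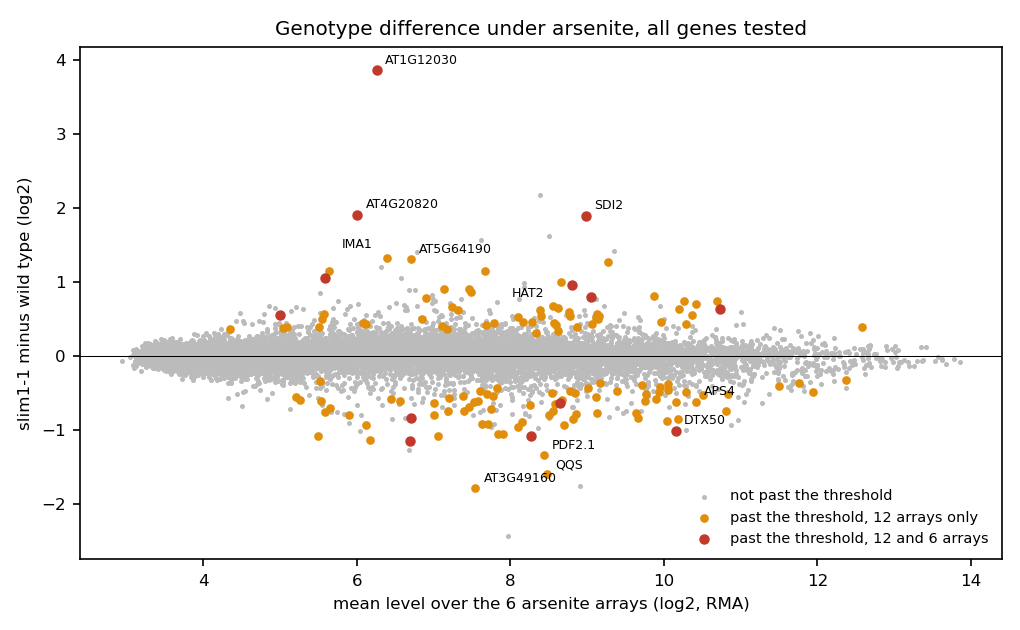
Difference between slim1-1 and Col-0 under arsenite (log2, vertical axis) against the mean level over the 6 arsenite arrays (log2, horizontal axis) for 13356 genes, 1 point each. Orange points passed the threshold over 12 arrays only, red points passed both over 12 arrays and over the 6 arsenite arrays, and AT1G12030 stands highest, at a measured 3.86.

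The 13 genes that passed in both fits comprised 8 higher and 5 lower in slim1-1. The largest measured difference was that of AT1G12030, whose level was 9.21, 7.75 and 7.62 in slim1-1 and 4.34, 4.38 and 4.29 in Col-0. The Col-0 values lay below the lower quartile of all probe sets (4.55 to 4.62), so the gene was near the low end of the array in wild-type seedlings and at a middle to high level in the mutant. The measured difference was 3.86 ± 0.34 (log2, SE; adjusted p = 0.000352 over 12 arrays and 0.0291 over the 6 arsenite arrays). The values carry no detection calls and the Col-0 level cannot be told apart from background, so no fold change is given. No symbol for this gene is given in the tables used here.

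SDI2 (SULFUR DEFICIENCY INDUCED 2, AT1G04770) is a repressor of glucosinolate synthesis that is induced in sulfur-starved plants. It stood at 10.17, 9.90 and 9.74 in slim1-1, against 7.77, 8.23 and 8.12 in Col-0. All 3 mutant arrays were above all 3 wild-type arrays by more than the spread of either group, and the difference was 1.89 ± 0.16 (log2, SE), or 3.72-fold (adjusted p = 0.000352, and 0.0147 over the 6 arsenite arrays). AT4G20820, a member of the berberine bridge enzyme-like family of flavin-dependent oxidases, showed a difference of nearly the same size. Its level was 7.25, 6.94 and 6.68 in slim1-1 and 4.90, 5.03 and 5.22 in Col-0, which is 3.75-fold (1.91 ± 0.18 on the log2 scale, adjusted p = 0.000461, and 0.0147 over the 6 arsenite arrays).

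The other 5 genes that were higher in slim1-1 in both fits differed by smaller amounts. AT1G03020, a CC-type glutaredoxin, was at 6.22, 6.08 and 6.03 in slim1-1 and at 5.10, 4.85 and 5.24 in Col-0, a 2.07-fold difference. SFP1, a member of the sugar-porter family, was at 11.06, 11.02 and 11.05 in slim1-1 and at 10.42, 10.29 and 10.53 in Col-0, with a difference of 0.64 on the log2 scale. These 2 genes had tight values in the mutant and did not overlap between genotypes. The other 3 genes, without a symbol in the tables, were AT3G56200 at 1.94-fold, AT3G19000 at 1.73-fold and AT1G54200 at 1.47-fold. In Col-0 AT1G54200 lay at 4.70 to 4.77, close above the lower quartile of all probe sets (4.55 to 4.62). Adjusted p-values of the 5 genes lay between 0.00249 and 0.012 over 12 arrays and between 0.0299 and 0.0451 over the 6 arsenite arrays.

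Of the 5 lower genes, AT1G24330 had the largest difference. It stood at 6.24, 6.16 and 5.95 in slim1-1 and at 7.20, 7.48 and 7.11 in Col-0, so that it fell by 1.15 in log2 units (adjusted p = 0.000461, and 0.0291 over the 6 arsenite arrays). DTX50, a transporter of the MATE family that exports abscisic acid from cells, was at 9.66, 9.74 and 9.55 in slim1-1 against 10.84, 10.61 and 10.53 in Col-0. It fell by 1.01 (adjusted p = 0.00268, and 0.0291 over the 6 arsenite arrays). AT2G17660 fell by 1.08, AT5G19110 by 0.84 and AT3G44630 by 0.63. The call of AT5G19110 was lost without slim1-1 replicate 2 or Col-0 replicate 2, with an adjusted p of up to 0.0675. The other 12 genes passed in every alternative that tested them.

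**Figure D2:**
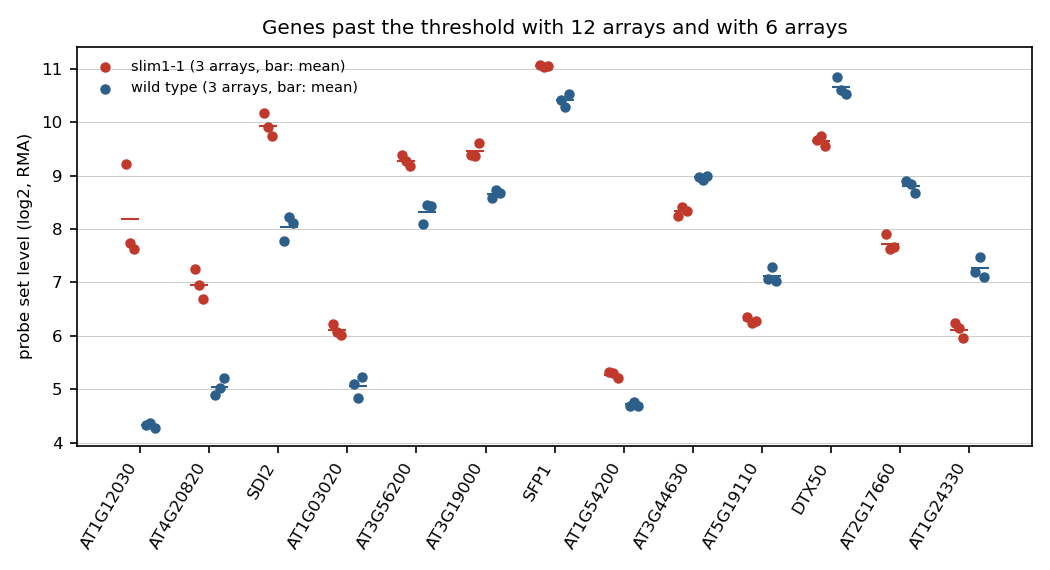
Levels (log2, vertical axis) of the 13 genes called over 12 and over 6 arrays, with the 3 slim1-1 arrays in red left of the 3 Col-0 arrays in blue, and the mean as a bar. The groups do not overlap in any of the 13 genes, and slim1-1 replicate 1 of AT1G12030 stands at 9.21, above the 7.75 and 7.62 of the other two.

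One further gene passed only over the 6 arsenite arrays and is named because it was the single such case. CML37, a calmodulin-like calcium sensor, was at 8.88, 9.0 and 8.74 in slim1-1 and at 9.79, 9.77 and 9.53 in Col-0. The difference of -0.83 had an adjusted p of 0.0451 over 6 arrays and 0.106 over 12.

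Among the remaining genes with at least a 2-fold difference, those that passed whichever of the 6 arrays was left out were led by AT3G49160 and QQS. AT3G49160 stood at 6.47, 7.25 and 6.24 in slim1-1 and at 8.43, 8.74 and 8.13 in Col-0, and it fell by 1.78 (adjusted p = 0.00249, and 0.0749 over the 6 arsenite arrays). QQS, a gene found in A. thaliana without relatives in other species that affects the partition of carbon and nitrogen, was at 8.15, 6.98 and 7.93 in slim1-1 and at 9.47, 9.13 and 9.24 in Col-0. It was 3.02-fold lower in slim1-1 (adjusted p = 0.0111, and 0.105 over the 6 arsenite arrays), and replicate 2 was the lowest of the mutant arrays. In the upward direction AT5G64190 was at 7.08, 7.40 and 7.58 in slim1-1 against 6.24, 5.72 and 6.19 in Col-0, a 2.47-fold difference (adjusted p = 0.0065, and 0.0581 over the 6 arsenite arrays). AT1G52100 was 2.42-fold and AT3G05170 was 2.21-fold higher in slim1-1, both with an adjusted p of 0.0749 over the 6 arsenite arrays.

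The other genes that led the called differences have no role given in the tables. Among the higher ones, AT1G78170 was 1.87-fold higher in slim1-1 (adjusted p = 0.00732, and 0.0792 over the 6 arsenite arrays) and held whichever array was left out. P1R1 at 1.81-fold (adjusted p = 0.0128, and 0.109 over the 6 arsenite arrays) and AT5G01740 at 2.22-fold (adjusted p = 0.0229, and 0.175 over the 6 arsenite arrays) lost the call without Col-0 replicate 2, with adjusted p-values of 0.0638 and 0.102, and AT5G01740 also lost it when the spread was estimated with a trend and robustly. Among the lower ones, AT2G25460 was at 7.68, 7.45 and 6.98 in slim1-1 against 8.62, 8.28 and 8.37 in Col-0, or 2.07-fold lower (adjusted p = 0.0065, and 0.0981 over the 6 arsenite arrays). AT2G36630 was 1.90-fold lower (adjusted p = 0.00358, and 0.0581 over the 6 arsenite arrays), and both held whichever array was left out. AT1G78070 was 1.94-fold lower and lost the call without Col-0 replicate 2 (adjusted p = 0.0149, 0.0622 without that array and 0.0878 over the 6 arsenite arrays). AT5G05250, AT4G28240, AT1G22810, AT2G22760, AT3G20340 and AT4G39675 each lost the call without 3 or more of the 6 arrays, and their differences ran between -1.13 and 1.00. AT5G05250, AT3G20340 and AT4G39675 also lost it with the trended and robust spread.

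Sulfur metabolism was covered thinly, because the probe table names few of its genes. Of 10 listed markers of sulfur starvation, SDI2 and BGLU28 were measured. BGLU28, a glucosidase that releases sulfur from glucosinolates, was at 5.28, 5.6 and 4.71 in slim1-1 and at 4.48, 4.56 and 4.52 in Col-0. Its difference of 0.68 did not pass (adjusted p = 0.268), although the groups did not overlap. The Col-0 arrays lay near the lower quartile of all probe sets. Of 32 listed genes of sulfate uptake and assimilation, 3 were measured. APS4, a plastid ATP sulfurylase that activates sulfate, was at 9.88, 10.14 and 10.30 in slim1-1 and at 10.70, 10.68 and 10.79 in Col-0. It was 1.53-fold lower in slim1-1 (adjusted p = 0.0181, and 0.109 over the 6 arsenite arrays), with a wider spread in the mutant. The call of APS4 was lost without slim1-1 replicate 2 or Col-0 replicate 2 or 3, with an adjusted p of up to 0.0638. APS3, a second ATP sulfurylase, differed by 0.14 (adjusted p = 0.769), and SIR, the sulfite reductase, by -0.16 (adjusted p = 0.496).

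No measured gene of glutathione reduction, arsenic handling or methionine metabolism passed. The glutathione reductases GR1 and GR2 differed by 0.07 and -0.12. HAC1, which reduces arsenate to arsenite, was at 10.88, 10.81 and 10.25 in slim1-1 and at 10.73, 10.77 and 10.94 in Col-0, with a difference of -0.17. The slim1-1 and Col-0 arrays overlapped for all 3 of these genes. The methyltransferase HMT1 differed by 0.22 (adjusted p = 0.318) and MGL, the methionine gamma-lyase, by -0.05. Of 31 listed genes of glucosinolate synthesis, 4 were measured and 0 passed. GSTU20 differed by -0.14 (adjusted p = 0.694), UGT74C1 by -0.16 (adjusted p = 0.647) and UGT74B1 by 0.01 (adjusted p = 0.982). BCAT4, which opens the chain elongation of methionine, stood at 9.50, 9.82 and 9.83 in slim1-1 and at 10.38, 10.52 and 10.32 in Col-0. The groups did not overlap, but the difference of -0.69 had an adjusted p of 0.181 over 12 arrays and 0.0821 over the 6 arsenite arrays.

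CC-type glutaredoxins are small plant-specific redox proteins, several of which respond to nitrogen and other nutrients. Of 21 listed genes 17 were measured, of which 1 passed higher and 2 passed lower in slim1-1, that is 3 of 17, against 1.05% of all genes. The median difference of the 17 was -0.30, against 0.01 over all genes, and 10 had an unadjusted p below 0.05, which 12.8% of all genes had. The higher one was AT1G03020, described above. The 2 lower ones were AT4G15660 and AT4G15690, which lie 3 genes apart on chromosome 4 within a run of close relatives. AT4G15660 was at 5.13, 4.57 and 5.17 in slim1-1 and at 6.21, 6.07 and 5.84 in Col-0, a difference of -1.08 (adjusted p = 0.0041, and 0.0847 over the 6 arsenite arrays). The 4.57 of slim1-1 replicate 2 lay at the lower quartile of all probe sets (4.55 to 4.62). AT4G15690 was at 6.42, 6.50 and 6.89 in slim1-1 and at 7.63, 7.17 and 7.41 in Col-0, a difference of -0.80 (adjusted p = 0.0216, and 0.126 over the 6 arsenite arrays). Both genes lay lower in all 3 mutant arrays. The call of AT4G15690 was lost without slim1-1 replicate 2 or Col-0 replicate 1 or 3, with an adjusted p of up to 0.0913. Their neighbours AT4G15680 and AT4G15700 differed by -0.56 and -0.91 and did not pass (adjusted p = 0.0835 and 0.0781). Whether RNA of one of these near relatives was read by the probes of another was not tested, so they are not independent observations. GRX480, which links redox state to jasmonate and salicylate signalling, differed by -0.75 (adjusted p = 0.106), and AT4G33040 by 0.55 (adjusted p = 0.0726).

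Berberine bridge enzyme-like oxidases were measured for 22 of 27 listed genes, of which 2 passed higher and 0 lower in slim1-1 (9.09%, against 1.05% of all genes). Besides AT4G20820, AT1G26390 was at 7.54, 7.92 and 7.29 in slim1-1 and at 6.75, 6.34 and 6.97 in Col-0, a 1.87-fold difference (adjusted p = 0.0226, and 0.155 over the 6 arsenite arrays). Its call was lost without slim1-1 replicate 2 or Col-0 replicate 2, with an adjusted p of up to 0.0942. The list as a whole had a median difference of 0.11. AT1G26420, which was highest in slim1-1 replicate 3 at 8.04, differed by 0.83 without passing (adjusted p = 0.225). AT4G20860 went the other way, with a difference of -0.31 that did not pass (adjusted p = 0.106), although its groups did not overlap.

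Genes of iron deficiency were measured for 6 of 25 members. IMA1, which encodes a peptide that promotes iron uptake, passed as the only one of them (16.7%, against 1.05% of all genes). A share that rests on 1 gene, here or in the lists below, is not read as an excess. IMA1 stood at 7.70, 6.49 and 6.99 in slim1-1 and at 5.71, 5.28 and 6.22 in Col-0, or 2.5-fold higher (adjusted p = 0.0399, and 0.206 over the 6 arsenite arrays). The lowest mutant array lay close above the highest wild-type array, and the call was lost without slim1-1 replicate 1 or 3 or Col-0 replicate 1 or 2, with an adjusted p of up to 0.172. BHLH101, a transcription factor induced by iron deficiency, was at 7.67, 6.35 and 6.74 in slim1-1 and at 5.15, 5.37 and 6.64 in Col-0. Its groups overlapped, and the difference of 1.2 did not pass (adjusted p = 0.148). BTSL1, a ubiquitin ligase that restrains iron uptake, differed by 0.71 (adjusted p = 0.0714), S8H, which makes the coumarin fraxetin, by 0.24, F6'H1 of the same pathway by 0.10 and the regulator PYE by -0.09. The median of the 6 was 0.48. No member of the iron storage list was measured.

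**Figure D3:**
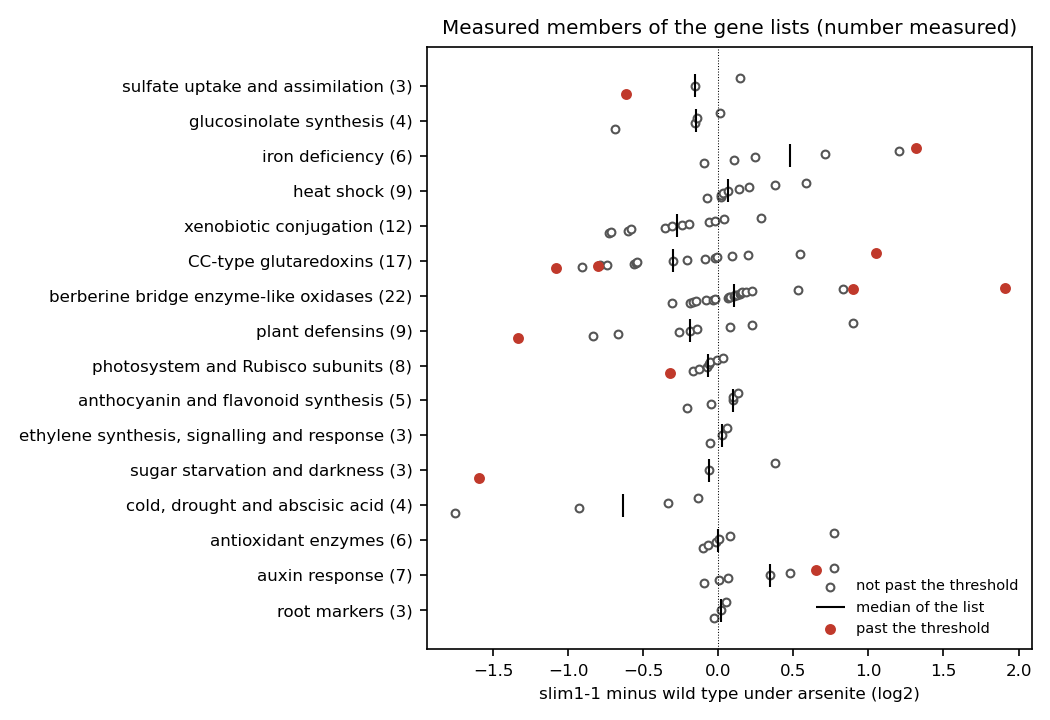
Differences between slim1-1 and Col-0 under arsenite (log2, horizontal axis) for the measured members of each gene list with at least 3 of them, 1 point per gene, with the median of the list as a bar. Filled points passed the threshold over 12 arrays. The medians run between -0.63 for the 4 cold and drought genes and 0.48 for the 6 iron deficiency genes.

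Genes of xenobiotic conjugation, which attach glutathione or sugars to foreign compounds, were measured for 12 of 44 members and none passed over 12 arrays. Their median difference was -0.27, 2 of the 12 lay above 0 (16.7%, against 52.6% of all genes), and 5 had an unadjusted p below 0.05, which 12.8% of all genes had. The glutathione transferase GSTU18 was at 8.98, 8.99 and 9.02 in slim1-1 and at 9.22, 9.38 and 9.30 in Col-0 (difference -0.31, adjusted p = 0.0556), and it passed when the arrays were shifted to a common median. The glutathione transferase GSTU26 differed by -0.73 (adjusted p = 0.17) and the glucosyltransferase UGT73B4 by -0.60 (adjusted p = 0.118). GSTU27, also among the 5, was higher in slim1-1 by 0.29 without overlap of the groups (adjusted p = 0.214).

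HAT2, a homeodomain-leucine zipper factor induced by auxin, was at 8.95, 8.98 and 8.91 in slim1-1 and at 8.12, 8.33 and 8.44 in Col-0. All 3 mutant arrays lay above the wild-type arrays, the difference was 0.65 (adjusted p = 0.00371, and 0.0699 over the 6 arsenite arrays), and the call held whichever array was left out. It was the only one of 7 measured auxin response genes (22 listed) that passed (14.3%, against 1.05% of all genes). That share rests on 1 gene and is not read as an excess. The other 6 included IAA29 with 0.77 (adjusted p = 0.348), GH3.3 with 0.47 (adjusted p = 0.191) and GH3.5 with 0.34 (adjusted p = 0.423). The list had a median of 0.34.

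DEWAX, CER26 and XERICO are called genes with a symbol that were chosen after their values were seen. DEWAX, an ERF factor that represses cuticular wax synthesis, was at 10.89, 11.07 and 11.26 in slim1-1 and at 10.30, 10.34 and 10.34 in Col-0, a 1.68-fold difference (adjusted p = 0.00729, and 0.0581 over the 6 arsenite arrays). Its call held whichever array was left out. CER26, which serves the elongation of very-long-chain fatty acids for wax, was 1.35-fold higher in slim1-1 (adjusted p = 0.0462, and 0.135 over the 6 arsenite arrays). Leaving out any 1 of the 6 arsenite arrays ended the call of CER26, with an adjusted p of up to 0.191, as did the shift to a common median. XERICO, a RING-type protein that raises abscisic acid levels, was 1.31-fold higher (adjusted p = 0.0463, and 0.21 over the 6 arsenite arrays). Its call was lost without slim1-1 replicate 2 or 3 or Col-0 replicate 1 or 2, with an adjusted p of up to 0.191, and also when the arrays were shifted to a common median. PUB19, a ubiquitin ligase that dampens abscisic acid responses, was at 8.42, 8.49 and 7.80 in slim1-1 and at 8.97, 9.33 and 9.20 in Col-0. It was 1.91-fold lower in slim1-1 (adjusted p = 0.0181, and 0.135 over the 6 arsenite arrays), and its call was lost without Col-0 replicate 2 or 3, with an adjusted p of up to 0.0975.

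PDF2.1 was the called member of the plant defensins, which are small cysteine-rich peptides. It stood at 8.56, 7.37 and 7.37 in slim1-1 and at 8.74, 9.47 and 9.10 in Col-0, so that slim1-1 replicate 1 lay close below the lowest wild-type array. The difference of -1.33 had an adjusted p of 0.0417, and of 0.204 over the 6 arsenite arrays. The call was lost without slim1-1 replicate 2 or 3 or Col-0 replicate 2 or 3, with an adjusted p of up to 0.179. Of 11 listed defensins 9 were measured and 1 was called (11.1%, against 1.05% of all genes), with a median difference of -0.19. That share rests on 1 gene and is not read as an excess. UGT72E1, a glucosyltransferase of phenylpropanoid aldehydes, was 1.68-fold higher in slim1-1 (adjusted p = 0.0438, and 0.187 over the 6 arsenite arrays). Its call was lost without replicate 2 or 3 of either genotype, with an adjusted p of up to 0.176. Calls of IMA1, PDF2.1 and UGT72E1 were also lost when the spread was estimated with a trend and robustly. The call of UGT72E1 was lost with a common median too.

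Photosystem and Rubisco subunits were measured for 8 of 49 members, of which 1 was called. That is 12.5%, against 1.05% of all genes and 1.95% of the third of genes with the highest level. A share that rests on 1 gene is not read as an excess. PSB27, which assists the assembly and repair of photosystem II, was at 12.13, 12.26 and 12.25 in slim1-1 and at 12.48, 12.56 and 12.56 in Col-0. It was 1.25-fold lower in slim1-1 (adjusted p = 0.0268, and 0.142 over the 6 arsenite arrays). The call was lost without slim1-1 replicate 1 or 2 or Col-0 replicate 2 or 3, with an adjusted p of up to 0.115. The mean of the 8 genes, which mark green tissue, was 12.35 in each slim1-1 array and between 12.39 and 12.50 in Col-0 (exact permutation p = 0.1, the smallest possible). The part of this shift in the other results was not tested.

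QQS was the called one of 3 measured genes of sugar starvation and darkness (9 listed), where MCCA differed by -0.06 and AT2G20670 by 0.37 (adjusted p = 0.908 and 0.294). The remaining lists held few measured genes and no calls. Heat shock genes were measured for 9 of 24 members with a median of 0.07, and antioxidant enzymes for 6 of 33 with a median of -0.01. Anthocyanin and flavonoid synthesis was measured for 5 of 16 members with a median of 0.10, and the ethylene list for 3 of 27 with a median of 0.02. Of these 4 medians, that of the ethylene list turned to -0.03 with a common median and that of the antioxidant enzymes to 0.01 with quantile normalization within each set. All 4 measured genes of cold, drought and abscisic acid lay below 0, whereas 52.6% of all genes lay above it, and their arrays were widely spread. COR15A, a cold-induced protein that protects plastid membranes, was at 9.14, 7.64 and 7.30 in slim1-1 and at 8.93, 10.13 and 10.29 in Col-0 (difference -1.76, adjusted p = 0.134).

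Where called genes lay within 5 annotated genes of each other on a chromosome, they formed 6 pairs. In 5 of the pairs both genes differed in the same direction, including AT4G15660 with AT4G15690, described above. DTX50 paired with AT5G52020 (-1.01 and -0.89), and AT2G36630 with AT2G36650 (-0.92 and -0.92). In the one opposed pair, AT1G21050 differed by 0.67 and AT1G21090 by -0.57. How many such pairs other sets of as many genes would form was not counted, so no clustering is read from these.

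The genotype difference under arsenite was then set against that under cadmium in the same fit. The 2 sets of arrays were not normalized together, which cancels within each genotype difference except for any step that depends on signal level. Under cadmium 1646 genes passed (12.3%), and for 574 genes (4.3%) the 2 genotype differences themselves differed. Of the 140 genes called under arsenite, 30 also passed under cadmium in the same direction and 9 passed in the opposite direction. SDI2, AT4G20820 and AT1G12030 belonged to the first kind. Their differences were 1.89, 1.91 and 3.86 under arsenite and 1.63, 1.93 and 2.98 under cadmium, and the tests of the differences between the metals had adjusted p-values of 0.59, 0.981 and 0.367. QQS likewise differed by -1.60 under arsenite and by -1.29 under cadmium (adjusted p of the difference between metals = 0.723).

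In 55 of the 140 genes the genotype difference under arsenite differed from that under cadmium, 22 of them higher and 33 lower in slim1-1 under arsenite. This share is not set against 4.3%, because the genes were chosen by one of the 2 differences. HAT2 differed by 0.65 under arsenite and by -0.51 under cadmium, and both passed (adjusted p of the difference between metals = 0.00039). DEWAX differed by 0.75 under arsenite and -0.71 under cadmium, and AT5G64190 by 1.3 under arsenite and -1.24 under cadmium, again with both passing and the same adjusted p of 0.00039. AT1G26390 differed by 0.90 under arsenite and -0.61 under cadmium (adjusted p = 0.00333). For these 4 genes the mutant was above wild type under arsenite and below it under cadmium. Other genes differed under arsenite with a value near 0 under cadmium. AT3G49160 differed by -1.78 under arsenite and 0.20 under cadmium (adjusted p = 0.00333), and AT1G03020 by 1.05 under arsenite and -0.11 under cadmium (adjusted p = 0.00327). AT4G15660 differed by -1.08 under arsenite and 0.14 under cadmium (adjusted p = 0.00608), and APS4 by -0.62 under arsenite and 0.19 under cadmium (adjusted p = 0.0122). IMA1, at 1.32 under arsenite and 0.15 under cadmium, did not pass the test of the difference between metals (adjusted p = 0.119). CML37 differed by -0.83 under arsenite and by 1.42 under cadmium (adjusted p = 0.00195). BGLU28, which did not pass under arsenite at 0.68, differed between slim1-1 and Col-0 by -2.90 under cadmium (adjusted p of the difference between metals = 0.000347).

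**Figure D4:**
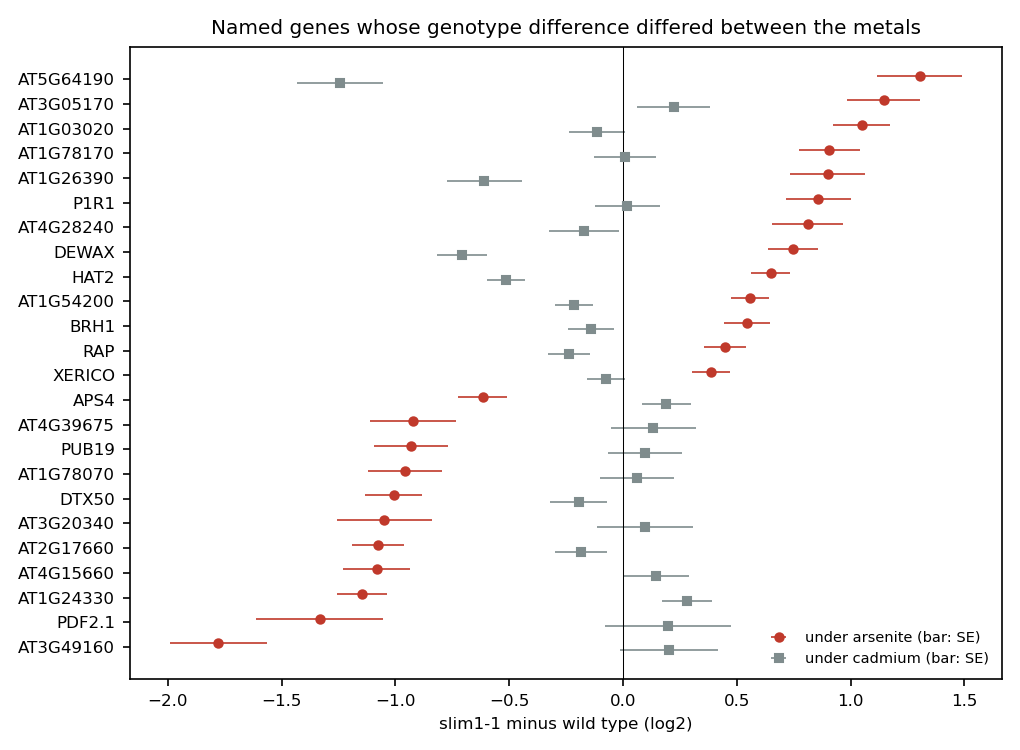
Genotype difference (slim1-1 minus Col-0, log2, horizontal axis) under arsenite in red and under cadmium in grey, with SE bars, for the 24 named genes called under arsenite whose 2 differences differed from each other. For 19 of the 24 the 2 differences lie on opposite sides of 0, which the choice of genes by both tests favours. For 4 of these, AT5G64190, DEWAX, HAT2 and AT1G26390, the cadmium difference passed the threshold too. The sign of the other cadmium differences is not resolved, since none of them passed.

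Some of the largest differences did not pass because replicates of a genotype were far apart. AT4G33720 was at 7.57, 7.05 and 5.67 in slim1-1 and at 9.82, 10.14 and 7.60 in Col-0, and its difference of -2.42 had an adjusted p of 0.101. The lowest array in both genotypes was replicate 3. AT2G43620 was at 8.52, 8.71 and 11.18 in slim1-1 and at 9.58, 6.72 and 5.59 in Col-0 (difference 2.17, adjusted p = 0.28). AT4G12500, AT4G12490, AT2G17740 and AT1G65500 were spread in the same manner. In slim1-1 replicate 3 all 4 stood above both other mutant arrays, with AT4G12490 at 12.02, AT2G17740 at 9.95 and AT1G65500 at 8.66, and in Col-0 they were highest in replicate 1. Their differences between genotypes, of 1.61, 1.41, 1.57 and 1.41, did not pass (adjusted p of at least 0.273).

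**Figure D5:**
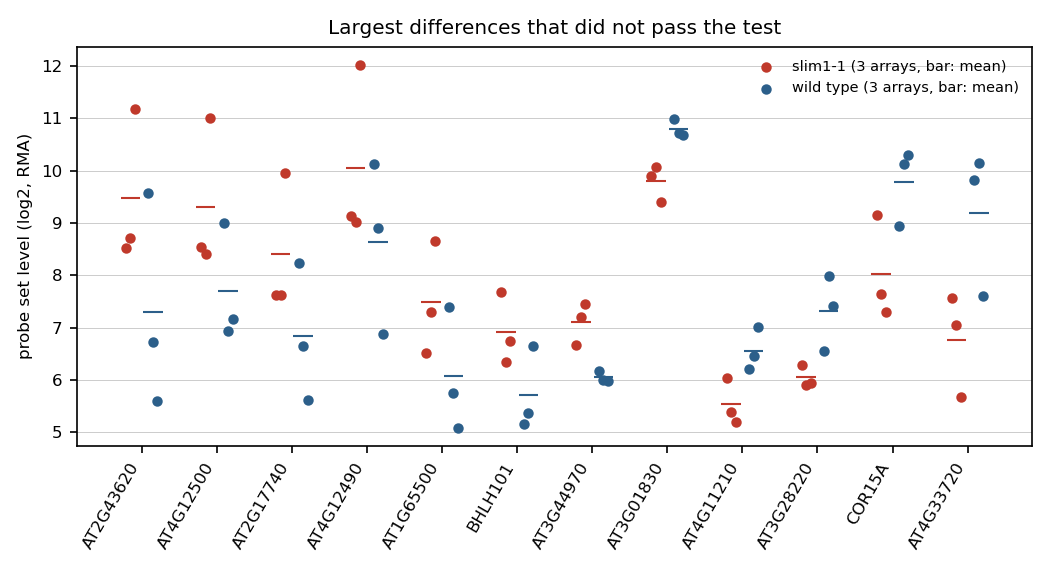
Levels (log2, vertical axis) of the 12 genes with the largest differences that did not pass the threshold, with the 3 slim1-1 arrays in red left of the 3 Col-0 arrays in blue, and the mean as a bar. For AT2G43620, AT4G12500, AT2G17740, AT4G12490 and AT1G65500, 1 mutant array, replicate 3, stands above the other two.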

How the data were processed

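RNA of whole seedlings (Qiagen kit, per the labels' protocols) was hybridised to Affymetrix arrays with 22810 probe sets. The authors used RMA, per the submitters' processing notes, which name no version, and deposited the resulting log2 values. Of 22746 probe sets other than controls, 13513 are listed with 1 gene, 503 with several and 8730 are not listed; the probe set with the highest mean was kept for each gene, which left 13356 genes (13286 matched to RefSeq, assembly TAIR10.1). Groups came from the labels.

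The main test was the moderated test of limma 3.58.1 (lmFit, then eBayes, under R 4.3.3) on all 12 arrays, with 1 mean per group of the 4, two-sided, with Benjamini-Hochberg adjustment over all genes. A fit of the 6 arsenite arrays, other scalings, array weights and left-out arrays were alternatives. The interaction was the arsenite minus the cadmium genotype difference. Data were simulated with independent noise and, for each gene, 1 spread shared by all 4 groups. There the 12-array fit recovered 74% of 50 genes changed by 0.5 and 96% of those changed by 1 on the log2 scale. The 6-array fit recovered 58% and 96%. A spread shared by construction cannot test the 12-array fit where spreads differ between the metals, as they did among the called genes. Replicate numbers were not treated as pairs in the main test. Deviations of same-numbered arsenite arrays from their group means correlated at -0.334, 0.030 and -0.226. These values cannot settle whether such arrays were handled together.

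The comparison, the 29 gene lists (555 members, 133 measured, matched by locus tag) and the tests were chosen with earlier results of these data known. The rules for naming covered genes called in both fits and the 15 largest called differences in each direction whose groups did not overlap. They also covered the 4 members of lowest p in any list that holds a called gene, and called members of 28 families found by keyword. Every measured gene of the sulfur, glutathione, arsenic, iron and glucosinolate lists was covered too. Not every gene under these rules is described in the text. Other called genes with a symbol, other list members at an unadjusted p below 0.05, CML37, neighbouring pairs and the largest uncalled differences were named after their values were seen. The values carry no detection calls. A search of promoters for motifs was planned but not run.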

Additional observations from a re-analysis of the deposited data

Results flagged for a closer look

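For 24 named genes that passed under arsenite, the genotype difference under arsenite differed from that under cadmium (limma interaction, adjusted p below 0.05 over all genes). The genes had been chosen by their arsenite difference, which is part of the interaction. Each value below is the arsenite difference minus the cadmium difference, both as slim1-1 minus Col-0 on the log2 scale. The leave-out settings for this test were added after the data were seen.

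For 13 of the 24 genes the test passed whichever of the 12 arrays was left out. Those with a positive value were AT5G64190 at 2.55, AT1G26390 at 1.51, DEWAX at 1.46, HAT2 at 1.16, AT1G03020 at 1.16, AT1G78170 at 0.90, AT1G54200 at 0.77 and RAP, a factor of chloroplast ribosomal RNA maturation, at 0.69. Those with a negative value were AT3G49160 at -1.98, AT1G24330 at -1.43, AT4G15660 at -1.23, AT2G17660 at -0.89 and APS4 at -0.81. Under cadmium RAP differed by -0.24 and AT1G54200 by -0.22, neither of which passed.

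The other 11 lost the call without at least 1 array. DTX50 at -0.81 lost it without Col-0 arsenite replicate 2 or Col-0 cadmium replicate 3, with an adjusted p of up to 0.0588. BRH1, a brassinosteroid-responsive RING protein, at 0.69, lost it without 3 of the 12 arrays and PUB19 at -1.03 without 5. The remaining genes lost it without 6 or more arrays. They were AT1G78070 at -1.02, AT4G28240 at 0.98, AT3G05170 at 0.92, AT3G20340 at -1.15, AT4G39675 at -1.06, P1R1 at 0.84, PDF2.1 at -1.53 and XERICO at 0.46. The highest adjusted p of these among the left-out arrays was 0.124, for AT3G20340.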

How the results depend on the processing

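The count of 140 genes fell to 14 with the 6 arsenite arrays alone, of which 8 were higher, 6 lower and 7 at least 2-fold different. With array weights it was 744, with 388 higher, 356 lower and 33 at least 2-fold, and with a common median 152 genes were lower. Of genes above the median level 13 were called with at least a 2-fold difference. With the replicate number as a block, which pairs same-numbered arrays, 85 genes passed, 29 of them higher. Of the 85, 73 were among the 140. Leaving out 1 array gave 50 to 250 calls, 16 to 97 higher, 34 to 153 lower and 15 to 37 at least 2-fold. Trend with robust spread, quantile normalization within each set and the mean of a gene's probe sets gave 155, 139 and 141 calls. Of the 140 genes, 12 passed in all alternatives and 0 changed sign. With 1 array left out the sign could not change, since the slim1-1 and Col-0 arrays did not overlap in any called gene. Sign changes were seen among named genes that did not pass. UGT74B1 differed by 0.01, by -0.0426 with a common median and by -0.0345 to 0.0658 with 1 array left out. With 1 array left out GR1 ran between -0.0738 and 0.195, HAC1 between -0.285 and 0.0328, MCCA between -0.192 and 0.0163 and MGL between -0.137 and 0.0525. For the difference between metals, PDF2.1, AT3G20340 and AT4G39675 lost the call with trend and robust spread (adjusted p = 0.102, 0.0705 and 0.0571), and AT3G20340 with a common median (adjusted p = 0.0509). The causes were not tested.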

Other observations

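Other called genes with a symbol were higher in slim1-1 under arsenite. PMEPCRF was the called one of 4 measured pectin methylesterases and inhibitors, a family found by keyword. That share (25%, against 1.05% of all genes) rests on 1 gene and is not read as an excess. The median difference of the family was 0.51. JAL22, BRH1, RBL and RAP were named after their values were seen. PMEPCRF, a pectin methylesterase that modifies cell wall pectin, was at 8.47, 8.52 and 8.56 in slim1-1 and at 8.13, 7.99 and 8.07 in Col-0 (difference 0.45, adjusted p = 0.0208, and 0.0749 over the 6 arsenite arrays). JAL22, a jacalin-related lectin, was at 10.54, 10.89 and 10.51 in slim1-1 and at 10.13, 9.95 and 10.22 in Col-0 (difference 0.55, adjusted p = 0.0463, and 0.151 over the 6 arsenite arrays). BRH1 differed by 0.55 (adjusted p = 0.0226, and 0.142 over the 6 arsenite arrays), RBL by 0.49 (adjusted p = 0.0387, and 0.105) and RAP by 0.45 (adjusted p = 0.0417, and 0.135). Each of these 5 genes lost the call without at least 4 of the 6 arsenite arrays when 1 was left out at a time, with an adjusted p of up to 0.191 in JAL22.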
